A study of Mus musculus with 3 samples.

Results

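The genes described here are 7 cyclin-dependent kinase (CDK) inhibitor genes, the phosphatase gene Cdkn3, and Mtap, the protein-coding neighbour of Cdkn2a. They were taken by gene name and are 9 of the 55573 genes in the UMI-RNAseq dataset. All libraries came from untreated NIH3T3 cells, an established and immortal line of mouse fibroblasts grown in DMEM with fetal bovine serum. The dataset holds 3 libraries under 1 condition, so no group of samples was compared with another. Separate cultures are not named in the labels, so each SD may cover technical spread only. Values are FPKM, the fragments counted for a gene per kilobase of its length and per 1000000 fragments of the library. In UMI-RNAseq, a random tag on each molecule (unique molecular identifier, UMI) lets PCR copies be recognized and removed. The libraries rest on 14423209, 13959723 and 14307241 fragments, as recovered from the FPKM values.

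CDK inhibitors restrain the kinases that drive the cell cycle. The INK4 proteins (p16 from Cdkn2a, p15 from Cdkn2b, p18 from Cdkn2c and p19 from Cdkn2d) bind CDK4 and CDK6 and keep them from cyclin D. The CIP/KIP proteins (p21 from Cdkn1a, p27 from Cdkn1b and p57 from Cdkn1c) bind complexes of CDKs with cyclins. From a start further upstream, Cdkn2a also makes ARF, a protein in another reading frame that binds MDM2 and so stabilizes p53. The Ink4/Arf locus is known as a barrier to the long-term growth of cultured mouse fibroblasts. Mtap encodes methylthioadenosine phosphorylase, an enzyme of methionine salvage, and in human tumours it is often lost together with CDKN2A.

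The libraries carried the markers of fibroblasts. All 10 fibroblast markers had a mean FPKM of at least 1, from 2.97 for S100a4 to 4377 for Fn1. The extraction text of the labels mentions retina, but 0 of 10 retina markers reached that level. Their summed level was 0.876 to 1.61 FPKM per library, and Opn1mw, Nrl and Rbp3 were listed at 0. Krt14 among 6 epithelial markers (8.39 FPKM) and Lyz2 among 6 immune markers (2.54 FPKM) reached it, whereas Epcam, Krt18 and Cd3e were listed at 0. The part of such cells in the results was not tested.

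The RefSeq promoters of the locus are shown first, because 3 transcript starts with no counted fragment lie within 1 Mb of a highly expressed gene. Each runs over 300 bases of GRCm38, from 250 bases before the start to 50 bases from it on, and capitals mark CG dinucleotides. The upstream start of Cdkn2a is that of the ARF transcript (chr4:89294570-89294869, minus strand), and the downstream start is that of the p16 transcript (chr4:89282143-89282442, minus strand). The windows of Cdkn2b (chr4:89310983-89311282, minus strand) and Mtap (chr4:89137120-89137419, plus strand) lie on the same chromosome. For Mtap the RefSeq start is 89137370, but in the annotation used for gene lengths (GENCODE M21) the gene starts at 89137122. Its window thus lies almost wholly within the gene as annotated there. That of Cdkn1a (chr17:29093519-29093818, plus strand) belongs to the inhibitor gene with the highest level.
Cdkn2a upstream start: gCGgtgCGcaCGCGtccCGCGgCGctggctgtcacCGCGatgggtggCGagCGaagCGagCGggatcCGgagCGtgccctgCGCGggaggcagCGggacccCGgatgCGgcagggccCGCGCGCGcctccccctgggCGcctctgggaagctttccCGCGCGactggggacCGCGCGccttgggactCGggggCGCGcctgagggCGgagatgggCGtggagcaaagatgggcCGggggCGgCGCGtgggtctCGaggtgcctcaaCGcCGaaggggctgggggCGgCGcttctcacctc
Cdkn2a downstream start: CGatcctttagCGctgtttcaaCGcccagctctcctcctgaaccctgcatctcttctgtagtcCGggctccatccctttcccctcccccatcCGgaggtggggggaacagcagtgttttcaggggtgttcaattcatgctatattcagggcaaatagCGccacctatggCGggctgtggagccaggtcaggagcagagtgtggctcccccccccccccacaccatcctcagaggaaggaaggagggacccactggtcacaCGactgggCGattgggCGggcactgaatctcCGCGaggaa
Cdkn2b: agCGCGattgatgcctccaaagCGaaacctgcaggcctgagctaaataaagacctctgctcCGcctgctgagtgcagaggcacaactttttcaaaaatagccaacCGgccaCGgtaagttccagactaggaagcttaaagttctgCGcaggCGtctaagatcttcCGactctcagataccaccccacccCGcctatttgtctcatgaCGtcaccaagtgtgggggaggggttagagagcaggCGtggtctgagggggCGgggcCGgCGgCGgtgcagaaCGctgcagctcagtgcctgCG
Mtap: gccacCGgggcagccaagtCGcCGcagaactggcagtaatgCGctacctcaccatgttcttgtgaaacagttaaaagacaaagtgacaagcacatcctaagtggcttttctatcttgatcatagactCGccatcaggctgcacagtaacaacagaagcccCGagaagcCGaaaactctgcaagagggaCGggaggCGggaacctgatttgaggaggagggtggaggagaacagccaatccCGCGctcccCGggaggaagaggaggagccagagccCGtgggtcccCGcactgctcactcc
Cdkn1a: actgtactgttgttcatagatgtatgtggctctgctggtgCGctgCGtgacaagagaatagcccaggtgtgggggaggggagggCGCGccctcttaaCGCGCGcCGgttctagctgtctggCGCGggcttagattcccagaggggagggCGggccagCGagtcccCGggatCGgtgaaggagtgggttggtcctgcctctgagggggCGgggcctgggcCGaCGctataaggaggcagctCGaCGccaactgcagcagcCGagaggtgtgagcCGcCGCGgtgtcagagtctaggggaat

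The promoters of Cdkn2a and Cdkn2b, both listed at 0, held more CG dinucleotides than the median promoter, as did most promoters of the expressed genes. The upstream start of Cdkn2a held 45 CG dinucleotides, more than 98.1% of the 32851 promoters in the RefSeq table, whose median was 7. The downstream start of Cdkn2a held 12 and that of Cdkn2b held 18. Mtap, with a high level, held 14, and the start of Cdkn1a shown held 23. A second start of Cdkn1a, further upstream, held 2. Among the other expressed genes, Cdkn2c held 8 and 33, Cdkn2d 22, Cdkn1b 30 and Cdkn3 25. The table had 11 promoters for 8 of the 9 genes, all but Cdkn1c. The GC box GGGCGG was found on either strand in 8 of these 11, against 35.7% of all promoters, and TATAAA in 0 of 11, against 13.6%. These matches describe the letters of the windows only.

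**Figure D1:**
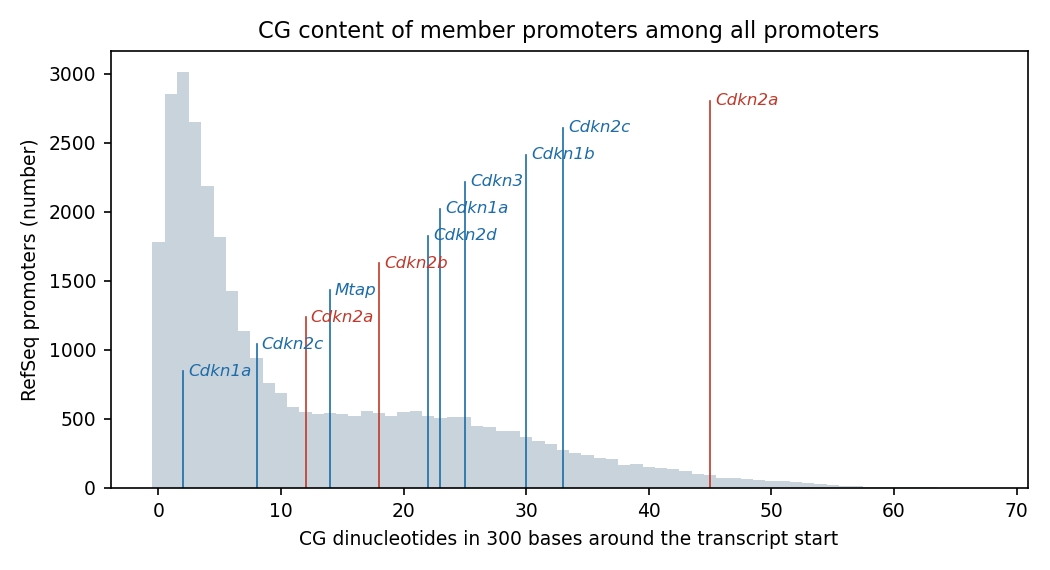
Number of RefSeq promoters (y axis) by the CG dinucleotides in their 300 bases (x axis, grey bars), with the promoters of the CDK inhibitor genes and Mtap marked by lines whose height carries no value. Of the starts of genes listed at 0 FPKM (red), 12 for Cdkn2a and 18 for Cdkn2b lie within the range of the expressed genes (blue), 2 to 33, and 45 for the upstream start of Cdkn2a lies above it.

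Of the 9 genes, 6 had a mean FPKM of at least 1, and Cdkn2a, Cdkn2b and Cdkn1c were listed at 0 in every library. Among all 21980 protein-coding genes, 49.2% had a mean of at least 1 and 28.2% were listed at 0 in every library. Among all genes, these shares were 23.2% and 52.9%, so a listed 0 was common. Each expressed gene rested on at least 152 fragments per library. Their coefficient of variation over the libraries lay between 0.786% for Cdkn1b and 5.67% for Cdkn3. For every gene but Mtap it was below the value that counting error alone gives, and for Mtap it was 1.48% against 1.48%.

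Within the INK4 family, Cdkn2c and Cdkn2d carried all fragments counted. Cdkn2a (ENSMUSG00000044303, chr4:89274471-89294653, minus strand) had 0 fragments in libraries 1, 2 and 3. At its length of 874 nt, 3 fragments would be worth 0.238, 0.246 and 0.240 FPKM. This was set as the limit for a sampled count of 0, which does not exclude a level slightly above it. Its row sums the transcripts of p16 and ARF, so neither had a counted fragment. Cdkn2b (ENSMUSG00000073802, chr4:89306299-89311039, minus strand) also had 0 fragments in each library, with limits of 0.150, 0.155 and 0.151 FPKM. All limits and intervals cover counting error only. No other annotated gene overlapped the exons of either gene, and 0% of their distinct words of 75 nt occurred in an annotated transcript of another gene. E2f6, an E2F repressor with 0% of its words shared, was also listed at 0 in every library. Whether a listed 0 is a sampled count was not tested. It is given only as a listed 0, and the limits hold only where it is such a count.

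Cdkn2c (ENSMUSG00000028551, chr4:109660876-109667189, minus strand) had 31.9, 31.4 and 31.6 FPKM in libraries 1, 2 and 3, with a mean of 31.6 ± 0.255 (SD, n = 3). These values rest on 823, 784 and 808 fragments. It made up 67.5% ± 0.628 (SD, n = 3) of the summed INK4 level. Cdkn2d (ENSMUSG00000096472, chr9:21288410-21291407, minus strand) had 15.3, 14.7 and 15.6 FPKM, from 248, 231 and 252 fragments, with a mean of 15.2 ± 0.477 (SD, n = 3). The libraries of both genes did not overlap, and Cdkn2c lay 2.08-fold ± 0.0594 (SD, n = 3) above Cdkn2d.

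Within the CIP/KIP family, Cdkn1a was the highest gene and Cdkn1c was listed at 0. Cdkn1a, a target gene of p53 (ENSMUSG00000023067, chr17:29090976-29100727, plus strand), had 142.6, 141.7 and 144.1 FPKM in libraries 1, 2 and 3, from 2897, 2787 and 2905 fragments. Its mean of 142.8 ± 1.22 FPKM (SD, n = 3) was higher than that of 93.5% of the 10813 protein-coding genes that averaged 1 FPKM or more. Its exons overlapped those of 1700023B13Rik, on the opposite strand, in 7.68% of their bases. That gene had 32, 33 and 31 fragments, few beside those of Cdkn1a. Of the words of 75 nt of Cdkn1a, 7.05% also occurred in transcripts of 93 other genes.

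Cdkn1b (ENSMUSG00000003031, chr6:134920401-134925513, plus strand), whose protein p27 is degraded as cells enter the cycle, had 48.4, 47.7 and 48.2 FPKM from 2025, 1930 and 1999 fragments. Its mean was 48.1 ± 0.378 FPKM (SD, n = 3), and Cdkn1a lay 2.97-fold ± 0.0234 (SD, n = 3) above it. Divided by the longest annotated isoform in place of the mean of 3 isoforms, Cdkn1b came to 30.6 FPKM.

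Cdkn1c (ENSMUSG00000037664, chr7:143458339-143461050, minus strand), an imprinted gene, had 0 fragments in each library, where 3 fragments would be worth 0.186, 0.192 and 0.187 FPKM. The antisense gene Gm44732 shares 30.7% of the exonic bases of Cdkn1c and was itself listed at 0. Use of strand in counting is not given in the labels, and fragments in the shared bases may be counted for neither gene. Of 10 genes listed for the wider imprinted region around Cdkn1c, with Igf2 and H19 among them, 3 had a mean FPKM of at least 1 (Cd81, Nap1l4 and Tssc4). The median of the 10 was 0.403 FPKM. Cd81 was the highest at 190.0 FPKM. Kcnq1ot1, a long noncoding RNA of this region, had 0.669, 0.756 and 0.748 FPKM, and Igf2 was listed at 0. The level of Kcnq1ot1 rests on 2876 fragments in all, so its FPKM under 1 does not mean few fragments.

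Taking both families, the summed level of the CDK inhibitors was 237.7 ± 2.05 FPKM (SD, n = 3), of which CIP/KIP genes held 80.3% ± 0.117 (SD, n = 3). Cdkn1a alone held 60.1% ± 0.180, Cdkn1b 20.2% ± 0.108, Cdkn2c 13.3% ± 0.110 and Cdkn2d 6.40% ± 0.146 (SD, n = 3). These shares varied little between libraries.

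Cdkn3 encodes a phosphatase that removes the activating phosphate of CDKs, and so differs from both inhibitor families. Cdkn3 (ENSMUSG00000037628, chr14:46760541-46771669, plus strand) had 10.2, 9.86 and 11.02 FPKM in libraries 1, 2 and 3, from 163, 152 and 174 fragments. Its mean of 10.4 ± 0.588 FPKM (SD, n = 3) was the lowest among the expressed genes, and it came to 5.87 FPKM with the longest isoform. Cdkn2d lay 1.47-fold ± 0.0410 (SD, n = 3) above Cdkn3.

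Mtap (ENSMUSG00000062937, chr4:89137122-89181081, plus strand) had the highest level of the set, with 193.4, 191.9 and 187.9 FPKM from 4680, 4496 and 4511 fragments. Its mean was 191.1 ± 2.84 FPKM (SD, n = 3), higher than that of 95.6% of the protein-coding genes with a mean of at least 1. The length behind it is the mean of 2 isoforms of 559 and 2797 nt, and with the longer isoform its level was 114.6 FPKM. Of 8 other genes of methionine salvage and polyamine synthesis, all had a mean of at least 1, from 18.1 FPKM for Enoph1 to 139.1 FPKM for Got1.

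In each library, FPKM fell in the order Mtap, Cdkn1a, Cdkn1b, Cdkn2c, Cdkn2d, Cdkn3, and no neighbours in this order overlapped between libraries. Mtap lay 1.34-fold ± 0.0298 (SD, n = 3) above Cdkn1a, and Cdkn1b 1.52-fold ± 0.00460 (SD, n = 3) above Cdkn2c. Each of the 5 ratios of neighbours was larger than 1 by more than its SD. The order was taken from the means of these same libraries, so the direction of each ratio was set beforehand. For all of them p was 0.25 in an exact permutation test (two-sided, signs of the log2 ratios flipped), and 0.25 when adjusted over the 5 by the method of Benjamini and Hochberg. With 3 libraries this test cannot give a smaller p. Divided by no length, the log2 ratio of fragments was 0.53 in place of 1.57 for Cdkn1a to Cdkn1b. It was 1.302 in place of 0.604 for Cdkn1b to Cdkn2c, and 1.72 in place of 1.06 for Cdkn2c to Cdkn2d. For Mtap to Cdkn1a it was 0.672 in place of 0.420, and for Cdkn2d to Cdkn3 0.581 in place of 0.553. The genes listed at 0 have no order among themselves.

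**Figure D2:**
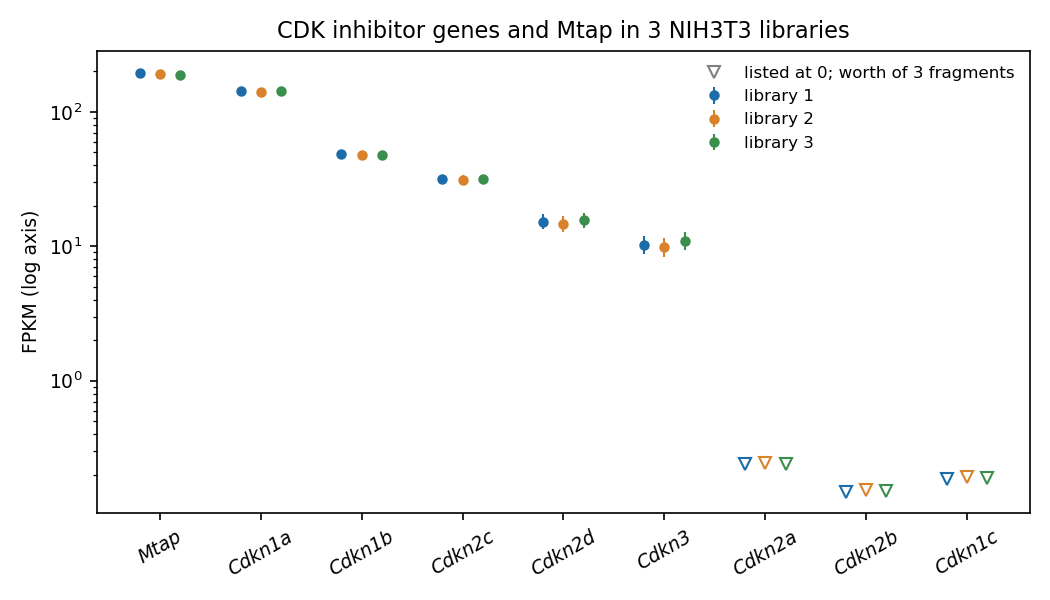
FPKM (y axis, log scale) of the 7 CDK inhibitor genes, Cdkn3 and Mtap in each of the 3 NIH3T3 libraries (colours). Points carry exact Poisson 95% intervals for counting error, and open triangles mark the worth of 3 fragments for genes listed at 0. The levels fall from 191.1 FPKM for Mtap to 10.4 for Cdkn3, and the triangles lie between 0.150 and 0.246 FPKM.

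Mtap and Cdkn2a are 93389 nt apart on chromosome 4, the former at 191.1 FPKM and the latter listed at 0. If the listed 0 of Cdkn2a and Cdkn2b were sampled counts, with 3 fragments set for both together at the length of Cdkn2a, Mtap would be at least 812.5-fold, 780.6-fold and 783.2-fold higher in libraries 1, 2 and 3. With the longest isoforms as lengths, the mean of this conditional bound was 486.6-fold in place of 792.1-fold. Within 1 Mb of Cdkn2a, 71 genes are annotated, of which 9 had a mean FPKM of at least 1 and 42 had 0 fragments in all libraries. Over all genes of the dataset, 23.2% had a mean of at least 1 and 52.9% were listed at 0 in every library. The 9 lay on the Mtap side of Cdkn2a. Of the 40 protein-coding genes in this window, Focad, Klhl9 and Mtap reached a mean of 1, against 49.2% of all protein-coding genes. The 40 include 17 interferon genes with an Ifn name.

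On the Mtap side, the noncoding genes Gm12602 and Wincr1 had 21.7 and 27.0 FPKM, and Klhl9, which encodes an adaptor of a ubiquitin ligase, had 19.99 FPKM. Of the 17 protein-coding interferon genes with an Ifn name there, 14 had 0 fragments, and the most in 1 of them was 10 over all libraries. Whether reads of similar interferon genes were split between them was not tested. The snoRNA gene Gm26490, next to Mtap, had 0, 5 and 6 fragments. From there on, the 5 genes from Tgif2-ps1 to Gm12609, with Cdkn2a and Cdkn2b among them, had 3 fragments in all, out of 42690173. Those 3 lay in Gm12606, a noncoding gene 1067 nt from Cdkn2a, with 1, 0 and 2 fragments in libraries 1, 2 and 3. Both genes are on the minus strand, and Gm12606 lies downstream of Cdkn2a.

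Beyond Cdkn2b, few fragments were counted within 1 Mb of Cdkn2a. Gm12610, a noncoding gene 110808 nt away, had 4, 6 and 2 fragments, and Dmrta1, the next protein-coding gene, had 1, 0 and 2. Of the 12 genes listed as flanking the locus, 4 had a mean of at least 1, with a median of 0.216 FPKM, from Ifnb1 at 0 to Mllt3 at 23.6 FPKM. The 4 were Mllt3, Klhl9 and Focad on the Mtap side, and Elavl2, beyond Dmrta1, at 3.22, 3.998 and 3.48 FPKM from 324 fragments in all. Both Cdkn2a and Cdkn2b were thus listed at 0 beside a highly expressed neighbour. A locus that is not transcribed and a locus missing from the genome of the line cannot be told apart from RNA. Whether these listed 0 are sampled counts was not tested either.

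**Figure D3:**
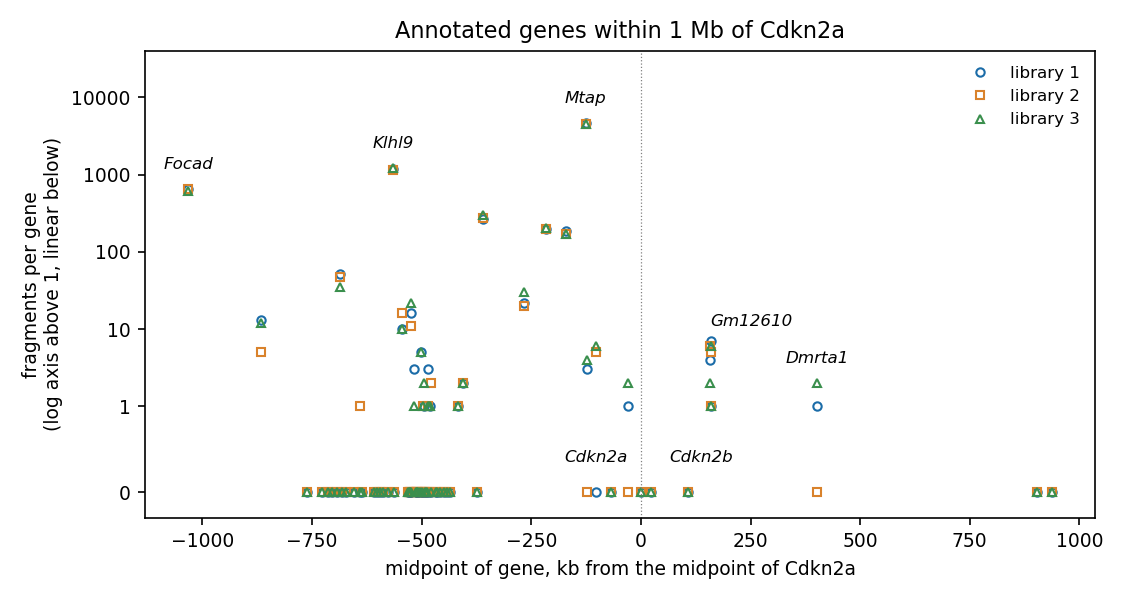
Fragments per gene (y axis, log scale above 1 and linear below) of the 71 annotated genes within 1 Mb of Cdkn2a, against the distance of their midpoints from that of Cdkn2a in kb (x axis), in 3 libraries. Mtap reaches 4496 to 4680 fragments, while Cdkn2a and Cdkn2b lie at 0 and no gene to their right exceeds 7 fragments in a library.

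The partners of the INK4 proteins were all expressed. The kinase genes Cdk4 and Cdk6 together had 406.1 ± 5.19 FPKM (SD, n = 3), which was 8.67-fold ± 0.216 (SD, n = 3) the summed INK4 level. All 5 genes of this list, with the cyclins D, had a mean of at least 1, from 57.8 FPKM for Ccnd3 to 272.3 FPKM for Cdk4, and a median of 133.7 FPKM. Of 8 other CDK and cyclin genes listed as partners of CIP/KIP proteins, 7 had a mean of at least 1, with a median of 22.5 FPKM. The germ cell cyclin Ccna1 was listed at 0. Cdk4, Cdk6 and the cyclins D were left out of that list, though CIP/KIP proteins bind their complexes too. The summed CIP/KIP level of 190.9 FPKM was 1.77-fold ± 0.00726 (SD, n = 3) that of Cdk1 and Cdk2 together. It lay below the 406.1 FPKM of Cdk4 and Cdk6. Levels of mRNA do not give the ratio of the proteins.

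Downstream, 10 of 11 Rb and E2F genes had a mean of at least 1, with E2f4 the highest at 73.4 FPKM and the pocket protein gene Rb1 at 37.9 FPKM. In the arm that ARF acts on, all 10 genes had a mean of at least 1. Trp53 had 97.9 ± 2.10 FPKM and Mdm2, which encodes the ligase that ARF binds, had 133.5 ± 1.15 FPKM (SD, n = 3). Npm1, a nucleolar partner of ARF, was the highest at 835.1 FPKM and Sesn1 the lowest at 10.9 FPKM. All 11 genes of CIP/KIP turnover had a mean of at least 1, from Ddb1 at 783.8 FPKM to Fbxw7 at 11.05 FPKM. Skp2, whose product marks p27 for degradation, had 17.2 ± 0.800 FPKM (SD, n = 3). All 12 proliferation genes had a mean of at least 1, with a median of 43.0 FPKM, from Birc5 at 22.9 FPKM to Top2a at 205.3 FPKM.

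Of 18 genes known as repressors of Ink4/Arf, mostly of the Polycomb group, 16 had a mean of at least 1. Bmi1 had 51.1 ± 1.32 FPKM and Ezh2 37.9 ± 1.40 FPKM (SD, n = 3), and Phc2 was the highest at 103.8 FPKM. Cbx7 had 0.0403, 0.125 and 0.163 FPKM and Tbx2 0.191, 0.178 and 0.308 FPKM, so both stayed under 1 FPKM. All 10 listed activators had a mean of at least 1, from Foxo1 at 4.87 FPKM to Junb at 225.0 FPKM. Over the 11 lists, 96 of 115 genes had a mean of at least 1, against 49.2% of protein-coding genes. The lists were chosen for pathway membership, and nothing particular to them is read from these counts.

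**Figure D4:**
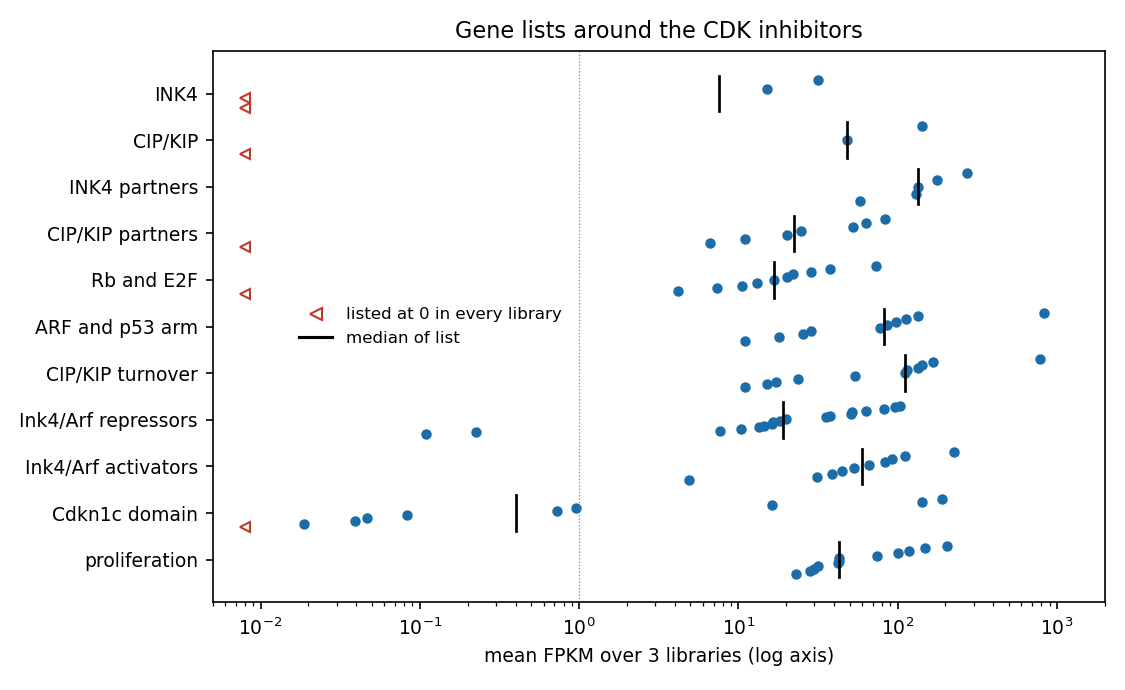
Mean FPKM over 3 libraries (x axis, log scale) of each gene in the lists around the CDK inhibitors (rows), with the list median as a black bar and genes listed at 0 as open triangles at the left edge. The INK4 row has 2 of 4 genes at 0, whereas the 5 INK4 partners lie between 57.8 and 272.3 FPKM.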

How the data were processed

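The transcriptome of untreated NIH3T3 cells was measured by UMI-RNAseq in 3 libraries. According to the methods, UMIs were found with UMI-tools (1.0.0), reads were mapped with Hisat2 (HISAT2 2.0.4 in the submitters' processing notes), reads with the same location and UMI were removed, and HTSeq (0.6.1) gave the reads per gene. The authors deposited the counts as FPKM, divided by gene length and library total, in 2 tables with identical values. The build behind the counting is not given in the sources used here. The number of value columns not used was 0.

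No count model was fitted to FPKM. Library totals and fragments were recovered from FPKM and the mean isoform length in GENCODE M21 (GRCm38), in which 55480 of 55573 gene IDs were found. Of the 26178 genes with a fragment, 25969 (99.2%) came out whole in every library within 0.01. In 3 simulated libraries of 55480 genes, 3 of 3 totals and the fragments of 100% of genes were recovered. The simulated FPKM were made with the same lengths and formula. That check therefore covers the computation only, not whether the deposited FPKM rest on these lengths. Python 3.11.15, numpy 2.4.6, pandas 2.3.3, scipy 1.17.1 and matplotlib 3.10.9 were used. Intervals are exact Poisson 95% intervals, and the floor is 3 fragments per library, a set value that is not an end of such an interval. The genes named are the members, the listed genes, genes within 1 Mb of Cdkn2a and genes that overlap a member. The members and lists were chosen with earlier results of these data known. No gene was sought for a pattern like that of a member, since 1 condition holds none. Alternatives were other scalings, lengths, limits and pseudocounts (1 and 0.1), the median, and leaving out each replicate.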

Additional observations from a re-analysis of the deposited data

How the results depend on the processing

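Most alternatives could not move the values and say nothing of stability: a mean of 3 cannot leave its SD when 1 library is left out, shares and ratios do not change when a library is rescaled, and a listed 0 stays 0. The alternatives that could move a value were the gene length, the limit on FPKM, the pseudocount and, for levels, the scaling. Among the 35 log2 ratios of neighbours computed again, none changed sign. When fragments were not divided by length, 3 of the 5 fold ratios of neighbours moved by over 1.5 times. The log2 ratio of Mtap to Cdkn1a also moved, from 0.420 to 0.672. With the longest annotated isoform, the bound of Mtap over Cdkn2a and Cdkn2b, which holds only if their listed 0 are sampled counts, had a mean of 486.6-fold against 792.1-fold, and the CIP/KIP share was 78.5% against 80.3%. The other 12 values that moved were the levels of the 6 expressed genes, which rose when each library was rescaled to a sum of 1000000 (TPM, Mtap to 276.8) and fell with the longest isoform (Mtap to 114.6 FPKM). No paired analysis was possible because all libraries belong to 1 group. For a sampled count of 0, the set limit is at most 0.246 FPKM per library for Cdkn2a, Cdkn2b and Cdkn1c. Whether their listed 0 are sampled counts was not tested.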
